A study of Sus scrofa with 3 samples.

Results

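The SLC25 genes encode the mitochondrial carriers, a family of small proteins of the inner mitochondrial membrane that move nucleotides, phosphate, organic acids, amino acids and cofactors between the matrix and the cytosol. Members were the genes of type mRNA whose deposited name is SLC25A followed by a number alone. The rule gave 40 genes of the 22826 mRNA genes in the deposited values, without use of any measured value. The names SLC25A10, SLC25A11, SLC25A18, SLC25A24, SLC25A42 and SLC25A52 were not among the 40 and these carriers were not analysed here.

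All pigs were male Chinese Wuzhishan miniature pigs, bought at 6 to 7 months of age and kept for 12 weeks on feed rich in fat and cholesterol (HFC diet). Intact pigs (IM) had skin incisions only, castrated pigs (CM) had both testes removed, and castrated pigs with testosterone replacement (CMT) also received weekly injections of 10 mg/kg testosterone propionate in corn oil. Visceral adipose tissue (VAT) was retroperitoneal fat. RNA of a group was mixed in equal amounts, from 4 pigs by the study's methods and 4 to 6 by the sample labels. From each mixture 1 library was sequenced. There are therefore no replicates, no difference below has a replicate check, and differences between individual pigs cannot be told apart from those between groups.

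Most carriers are built from repeated pairs of membrane helices and work as exchangers, so that one substrate enters as another leaves. In white fat they are best known for exporting citrate as the carbon source of fatty acid synthesis, for admitting acylcarnitines to beta-oxidation, for exchanging ADP with ATP, and for carrying reducing equivalents from the cytosol in the malate-aspartate shuttle. The uncoupling proteins belong to the same family.

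Levels are given in UQRPKM, reads × 100000 divided by gene length in bases and by the library's upper quartile of reads per gene. In this unit genes of different length can be compared. Whole reads could be recovered from these values, and they came to between 15106608 and 16611931 per library over all genes. A recovered number is the smallest that the values allow, so the 95% intervals given below can be too wide but cover counting error only. A gene was counted as past the thresholds at a fold change of 1.5 or more (0.58 on the log2 scale) with at least 1 UQRPKM in both libraries. In tissue samples, fewer cells of a type and less RNA per cell cannot be told apart.

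ADIPOQ, an adipocyte hormone, stood at 74928, 69193 and 63873 UQRPKM in IM, CM and CMT, so this defining marker of fat was present in each library. Markers of other tissues moved with the libraries. The 15 skeletal muscle markers that were found summed to 106, 92.4 and 7187 UQRPKM in IM, CM and CMT, with TNNT3, CKM and MB listed at 0 in all libraries. Of the 13 hepatocyte markers, 12 summed to 30.5, 8331 and 38.6 UQRPKM. The other, APOA1, a lipoprotein gene kept apart after its values were seen, was abundant in every library, at 2539, 2339 and 1714 UQRPKM, and was not higher in CM. Of the kidney markers, LRP2 had 1 read in CMT and the other 5 that were found were at 0 in all libraries.

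Of the 40 carriers, 37, 38 and 37 were above 0 in the IM, CM and CMT libraries, beside 69.2%, 69.3% and 69.2% of all mRNA genes. The median carrier stood at 101, 105 and 82.1 UQRPKM in IM, CM and CMT, whereas the median of all mRNA genes was 12.04, 12.08 and 12.03. Carriers at 100 UQRPKM or more numbered 20, 21 and 17 in IM, CM and CMT, or 50%, 52.5% and 42.5% of the family. Of all mRNA genes, 25.4%, 24.8% and 24.5% reached that level. These fat libraries thus held most of the named carriers, and many of them at levels above those of a typical gene.

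The family was dominated by a few transcripts. The 5 highest carriers held 65.1%, 64.1% and 64.0% of its summed level in the IM, CM and CMT libraries, and the 10 highest held 86.3%, 85.4% and 86.8%. Summed over the 40 genes, the level was 16830, 16507 and 15426 UQRPKM in IM, CM and CMT. These sums were 0.270%, 0.269% and 0.255% of the summed level of all mRNA genes, so the weight of the family in the transcriptome was lowest in CMT by a small margin.

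**Figure D1:**
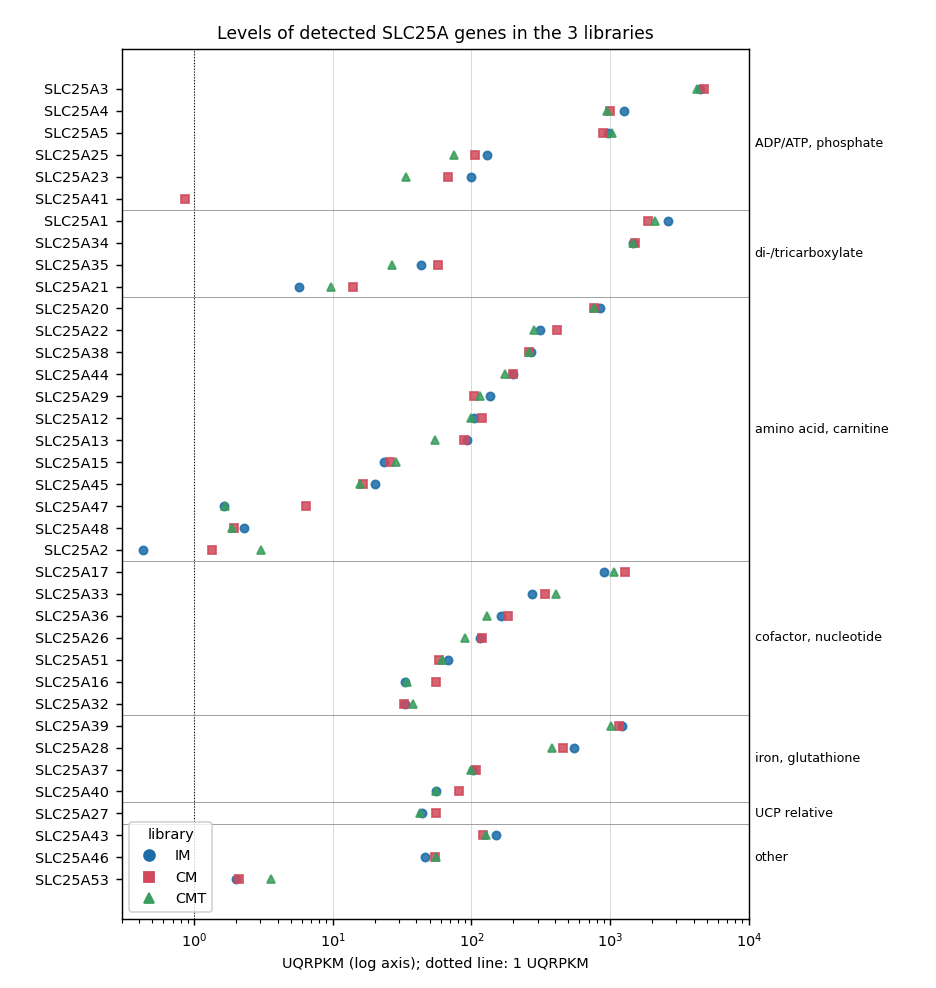
Level of 37 of the 38 detected SLC25A genes in UQRPKM on a log axis, with 1 symbol per library (IM, CM, CMT) and genes grouped by substrate, a library at 0 having no symbol. The 3 symbols of a gene mostly lie close together while the genes spread from under 1 to 4764 UQRPKM.

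The phosphate carrier SLC25A3, which supplies the matrix with phosphate for ATP synthesis, was the highest member in every library. It had 4418, 4764 and 4220 UQRPKM in IM, CM and CMT, from 7122, 7319 and 6667 reads. Its log2 ratio was 0.11 in CM versus IM (95% interval 0.06 to 0.16) and -0.17 in CMT versus CM (-0.22 to -0.13). The libraries thus differed by more than counting error but by far less than 1.5-fold.

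SLC25A4 and SLC25A5 encode ADP/ATP carriers, SLC25A4 being the main form of heart and skeletal muscle and SLC25A5 that of dividing cells and many other tissues. SLC25A4 had 1260, 1003 and 943.7 UQRPKM in IM, CM and CMT. SLC25A5 had 970.1, 893 and 1033. The muscle form was lower in both castrated groups than in IM, with log2 ratios of -0.33 (95% interval -0.41 to -0.24) in CM and -0.42 (-0.50 to -0.33) in CMT. The skeletal muscle markers stood high in CMT, and their part in the level of SLC25A4 was not tested. SLC25A5 was 0.21 higher on the log2 scale in CMT than in CM (0.11 to 0.31), and its interval included 0 in CMT versus IM.

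The other ADP/ATP carriers were listed at 0. SLC25A6, a form that most tissues express, and SLC25A31, the form of the testis, had 0 reads in all 3 libraries. A listing at 0 can be a failed estimate, and how reads shared between SLC25A4, SLC25A5 and SLC25A6 were assigned is not stated, so the split among these close relatives is uncertain.

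The ATP-Mg/phosphate carriers change the total amount of adenine nucleotides in the matrix, and SLC25A23 and SLC25A25 carry calcium-binding domains that face the intermembrane space. SLC25A23 had 98.8, 67.5 and 33.8 UQRPKM in IM, CM and CMT, from 155, 101 and 52 reads. SLC25A25 had 130, 105 and 74.5 UQRPKM in IM, CM and CMT, from 242, 187 and 136 reads. For both genes IM was highest and CMT lowest. SLC25A23 in CMT versus IM was the one ratio of that comparison whose whole interval lay past 1.5-fold, at -1.55 (95% interval -2.03 to -1.08). It was past the thresholds in CMT versus CM as well, at -0.998 (-1.51 to -0.50), but not in CM versus IM, at -0.55 (-0.92 to -0.18). SLC25A25 was past the thresholds in CMT versus IM alone, at -0.80 (-1.12 to -0.49). SLC25A41, a short relative without the calcium-binding part that lies next to SLC25A23 in the RefSeq annotation of Sscrofa11.1, had 1 read in CM and 0 in the other libraries.

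Among the carriers of di- and tricarboxylates, SLC25A1 exports citrate, from which the cytosol makes acetyl-CoA for fatty acid synthesis. It was the second highest member, at 2611, 1863 and 2105 UQRPKM in IM, CM and CMT, from 5944, 4043 and 4696 reads. The level was highest in IM and lowest in CM. Its log2 ratio was -0.49 in CM versus IM (95% interval -0.54 to -0.43) and -0.31 in CMT versus IM (-0.37 to -0.26), both inside 1.5-fold. ACLY, the ATP citrate lyase that cleaves the exported citrate, had 6272, 3879 and 2007 UQRPKM in IM, CM and CMT. It was past the thresholds in all 3 comparisons, with CM at -0.69 against IM, and CMT at -0.95 against CM and -1.64 against IM. Carrier and enzyme were both highest in IM, but ACLY was lowest in CMT and SLC25A1 was not.

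SLC25A34 and SLC25A35 are related carriers whose substrates are poorly known. SLC25A34 was the third highest member, with 1457, 1513 and 1458 UQRPKM in IM, CM and CMT from 2875, 2844 and 2818 reads. The interval of every one of its ratios included 0 and lay within 0.13 of it on the log2 scale. SLC25A35 had 43.1, 57.7 and 26.7 UQRPKM from 94, 120 and 57 reads. It was lower in CMT than in CM, with a log2 ratio of -1.11 (95% interval -1.60 to -0.65), and lower than in IM, at -0.69 (-1.19 to -0.20). The first of these was the one ratio of CMT versus CM whose whole interval lay past 1.5-fold.

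SLC25A21, the carrier of oxoadipate from lysine and tryptophan breakdown, rested on 3, 7 and 5 reads in IM, CM and CMT. Its levels of 5.69, 13.9 and 9.67 UQRPKM put CM versus IM and CMT versus IM past 1.5-fold, at 1.29 and 0.77 on the log2 scale. Both intervals included 0, running from -0.84 to 3.88 and from -1.60 to 3.45, so a difference was not detectable at this depth.

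The aspartate-glutamate carriers SLC25A12 and SLC25A13 drive the malate-aspartate shuttle, SLC25A12 mainly in brain and muscle and SLC25A13 mainly in liver. SLC25A12 had 104, 118 and 98.6 UQRPKM in IM, CM and CMT, from 215, 232 and 199 reads, and all of its intervals included 0. SLC25A13 had 92.9, 87.6 and 54.8 UQRPKM from 445, 400 and 257 reads. It was level between IM and CM within counting error and lower in CMT, at -0.68 versus CM (95% interval -0.91 to -0.45) and -0.76 versus IM (-0.99 to -0.54).

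The other amino acid and carnitine carriers with many reads stayed within 1.5-fold. SLC25A20, the carnitine-acylcarnitine carrier of beta-oxidation, had 841, 761 and 768 UQRPKM in IM, CM and CMT from 2638, 2275 and 2361 reads, and its log2 ratios lay between -0.14 and 0.01. SLC25A22, a glutamate carrier, had 314, 414 and 280.5 UQRPKM from 1445, 1817 and 1266 reads. SLC25A22 was highest in CM, by 0.40 over IM (95% interval 0.30 to 0.50), and CMT lay at -0.56 against CM (-0.67 to -0.46). SLC25A38, which brings glycine in for heme synthesis, kept to between 259 and 271 UQRPKM. SLC25A44, a carrier of branched-chain amino acids, had 199, 199.7 and 173 UQRPKM in IM, CM and CMT. SLC25A29, a carrier of basic amino acids, had 135, 104 and 115 UQRPKM and was highest in IM, at -0.37 in CM versus IM (-0.54 to -0.21).

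SLC25A15, the ornithine carrier of the urea cycle, had 115, 122 and 138 reads, and SLC25A45, a poorly known member, had 77, 60 and 59. The intervals of all their ratios included 0. SLC25A2, the second ornithine carrier, had 1, 3 and 7 reads in IM, CM and CMT, and SLC25A48 had 5, 4 and 4. SLC25A2 was past 1.5-fold in CMT versus CM at 1.18 on the log2 scale, with an interval from -0.95 to 3.77.

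SLC25A47, a carrier found almost only in liver, had 1.63, 6.43 and 1.67 UQRPKM in IM, CM and CMT, from 4, 15 and 4 reads. Its log2 ratio was 1.98 in CM versus IM (95% interval 0.33 to 4.03) and -1.95 in CMT versus CM (-4.00 to -0.30). The same library held the hepatocyte markers: ALB, the serum albumin of hepatocytes, had 10, 10612 and 15 reads in IM, CM and CMT. Of the 12 hepatocyte markers other than APOA1, 6, 0 and 5 were at 0 in IM, CM and CMT, while APOA1 was lower in CM than in IM by a log2 ratio of -0.12 (95% interval -0.19 to -0.05). Their part in the level of SLC25A47 was not tested. SLC25A29, which lies next to SLC25A47 in the RefSeq annotation of Sscrofa11.1, was not higher in CM.

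SLC25A17, the peroxisomal carrier of coenzyme A and other cofactors, was the highest of the cofactor and nucleotide carriers. It had 898, 1283 and 1062 UQRPKM in IM, CM and CMT, from 2352, 3202 and 2724 reads. CM was highest and IM lowest, the log2 ratio being 0.51 in CM versus IM (95% interval 0.44 to 0.59) and -0.27 in CMT versus CM (-0.35 to -0.20).

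SLC25A16, a mitochondrial carrier linked to coenzyme A, was the one member with over 10 reads in every library that was past the thresholds in CM versus IM. It had 33.4, 55.9 and 34.5 UQRPKM in IM, CM and CMT, from 158, 252 and 160 reads. IM and CMT lay together and CM above both. Its log2 ratio was 0.74 in CM versus IM (95% interval 0.45 to 1.04) and -0.70 in CMT versus CM (-0.99 to -0.40). Both comparisons share the CM library, so the pair of differences is not 2 separate observations.

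The pyrimidine nucleotide carriers SLC25A33 and SLC25A36 did not follow each other. SLC25A33 had 273.5, 341 and 409 UQRPKM in IM, CM and CMT, and SLC25A36 had 163, 184 and 130.2. SLC25A33 was highest in CMT and SLC25A36 lowest there. SLC25A33 in CMT versus IM, at 0.58 (95% interval 0.41 to 0.75), lay just inside the 1.5-fold threshold and passed it when libraries were scaled to equal totals.

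SLC25A26, the S-adenosylmethionine carrier, had 115, 119 and 89.8 UQRPKM in IM, CM and CMT, lowest in CMT. SLC25A51, the carrier of NAD, had 111, 92 and 99 reads, and SLC25A32, a carrier of folate and FAD, had 28, 26 and 31. No ratio of these last 2 genes had an interval that excluded 0.

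Of the carriers linked to iron and glutathione, SLC25A39, a mitochondrial glutathione carrier, had 1211, 1151 and 1011 UQRPKM in IM, CM and CMT from 2425, 2197 and 1984 reads. SLC25A40, its close relative, had 55.6, 81.4 and 55.1 UQRPKM from 200, 279 and 194 reads. SLC25A40 was highest in CM, at 0.55 over IM (95% interval 0.28 to 0.82), with CMT at -0.56 against CM (-0.84 to -0.29). SLC25A39 did not share this pattern, since its ratio in CM versus IM was -0.07 (-0.16 to 0.01).

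The mitoferrins bring iron into the matrix, SLC25A37 mainly in red cell precursors and SLC25A28 in most tissues. SLC25A28 had 546, 457 and 378 UQRPKM in IM, CM and CMT from 1289, 1027 and 874 reads. SLC25A37 had 102, 108 and 99.1 UQRPKM from 250, 251 and 237 reads. SLC25A28 was highest in IM and lowest in CMT, at -0.53 in CMT versus IM (95% interval -0.66 to -0.41), while every interval of SLC25A37 included 0.

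SLC25A27, a relative of the uncoupling proteins known mainly from brain, had 43.9, 55.4 and 42.5 UQRPKM in IM, CM and CMT. SLC25A46, an outer membrane protein of mitochondrial fission, had 46.1, 54.5 and 55.7. SLC25A43, with no known substrate, had 149, 121 and 126 UQRPKM in IM, CM and CMT. SLC25A5, its neighbour in the RefSeq annotation of Sscrofa11.1, had its highest value in CMT and SLC25A43 in IM. SLC25A53 had 4, 4 and 7 reads. It was past 1.5-fold in both comparisons of CMT, at 0.77 against CM and 0.84 against IM on the log2 scale, with intervals that included 0.

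In CM versus IM, 36 carriers had at least 1 UQRPKM in both libraries. Of these, 3 were past the thresholds, all higher in CM, namely SLC25A16, SLC25A21 and SLC25A47, or 8.33%. Of all 14123 mRNA genes compared, 18.8% were past them, 8.38% higher and 10.4% lower. The median log2 ratio was 0.05 over the carriers and -0.06 over all these genes. The interval excluded 0 for 12 carriers that were higher and 9 that were lower, and it lay wholly inside 1.5-fold for 21 of the 36. Such counts depend on the number of reads and were not made over all mRNA genes, so they do not set the family apart.

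In CMT versus CM, 7 of 37 carriers were past the thresholds, or 18.9%, beside 19.5% of 14098 mRNA genes. SLC25A2 and SLC25A53 were higher and SLC25A13, SLC25A16, SLC25A23, SLC25A35 and SLC25A47 lower. Of all mRNA genes, 9.53% were higher and 9.97% lower. The median log2 ratio was -0.12 over the carriers and -0.02 over all genes. Ratios lay above 0 for 35.1% of the carriers and 47.3% of all these genes. Intervals excluded 0 for 3 higher and 16 lower carriers and lay wholly inside 1.5-fold for 20. Counts of intervals over all mRNA genes were again not made, so this split does not set the family apart.

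In CMT versus IM, 6 of 36 carriers were past the thresholds, or 16.7%, beside 20.7% of 14151 mRNA genes. SLC25A21 and SLC25A53 were higher and SLC25A13, SLC25A23, SLC25A25 and SLC25A35 lower. Of all mRNA genes, 8.81% were higher and 11.9% lower. The median log2 ratio was -0.11 over the carriers and -0.08 over all genes. Intervals excluded 0 for 4 higher and 16 lower carriers, and for 21 they lay wholly inside 1.5-fold, again without counts over all mRNA genes.

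At 2-fold, 2, 3 and 1 carriers were past the threshold in the same order of comparisons, beside 8.06%, 8.69% and 8.21% of all mRNA genes. Recovered reads also allow an exact binomial test, here adjusted by Benjamini-Hochberg over all mRNA genes with reads, which sets pairs of libraries and not conditions against each other. This test at an adjusted limit of 0.05 was added to the 1.5-fold thresholds. It left 2 of 36 carriers in CM versus IM, the higher SLC25A16 and SLC25A47. Of all 14123 mRNA genes compared there, 10.1% were left in either direction, and 4.38% of all 14123 were left and higher. The test left 5 of 37 carriers in CMT versus CM, all lower. Of all 14098 mRNA genes compared there, 10.6% were left in either direction, and 5.56% of all 14098 were left and lower. It left 4 of 36 carriers in CMT versus IM, all lower. Of all 14151 mRNA genes compared there, 11.9% were left in either direction, and 7.37% of all 14151 were left and lower. Without the fold threshold, the test passed 10 higher and 7 lower carriers in CM versus IM, beside 34.7% of the mRNA genes compared. It passed 3 higher and 16 lower carriers in CMT versus CM, beside 30.3%, and 3 higher and 16 lower in CMT versus IM, beside 38.3%. These shares of all mRNA genes cover both directions and were not split. More reads let this test pass smaller differences, and the median carrier stood at 101, 105 and 82.1 UQRPKM in IM, CM and CMT. The median of all mRNA genes was 12.04, 12.08 and 12.03, so these counts do not set the family apart. Among the 36 carriers with at least 1 UQRPKM in every library, 28 stayed within 1.5-fold across all 3 libraries, or 77.8%, beside 67.2% of all such mRNA genes. The other 8 and SLC25A2 were the 9 carriers past the thresholds in any comparison.

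**Figure D2:**
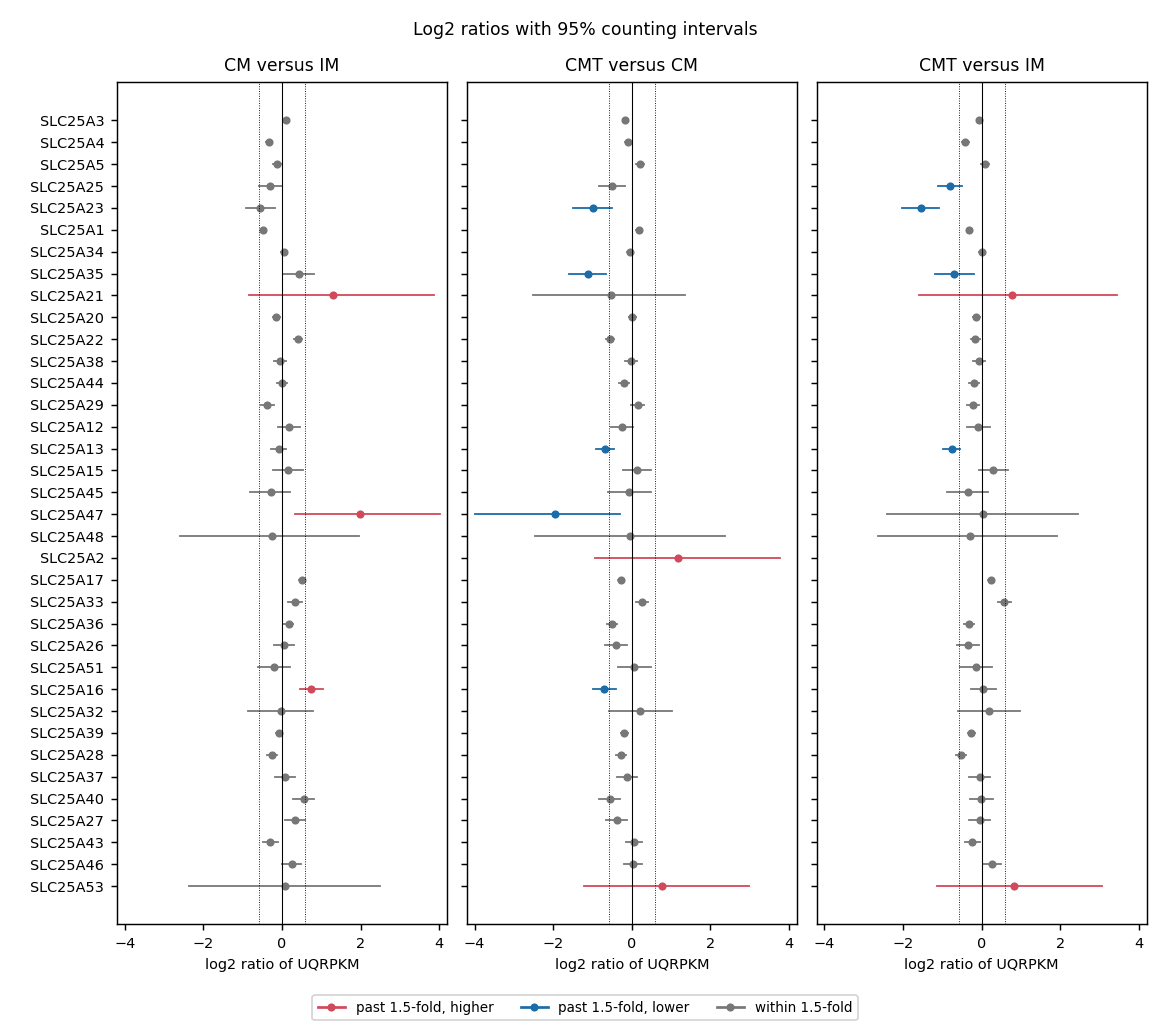
Log2 ratio of UQRPKM (points) with its 95% counting interval (lines) for the carriers plotted by level that had at least 1 UQRPKM in both libraries, in the 3 comparisons, with dotted lines at 1.5-fold. Carriers with the most reads have intervals hidden by the point, and the long lines belong to carriers with under 20 reads.

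**Figure D3:**
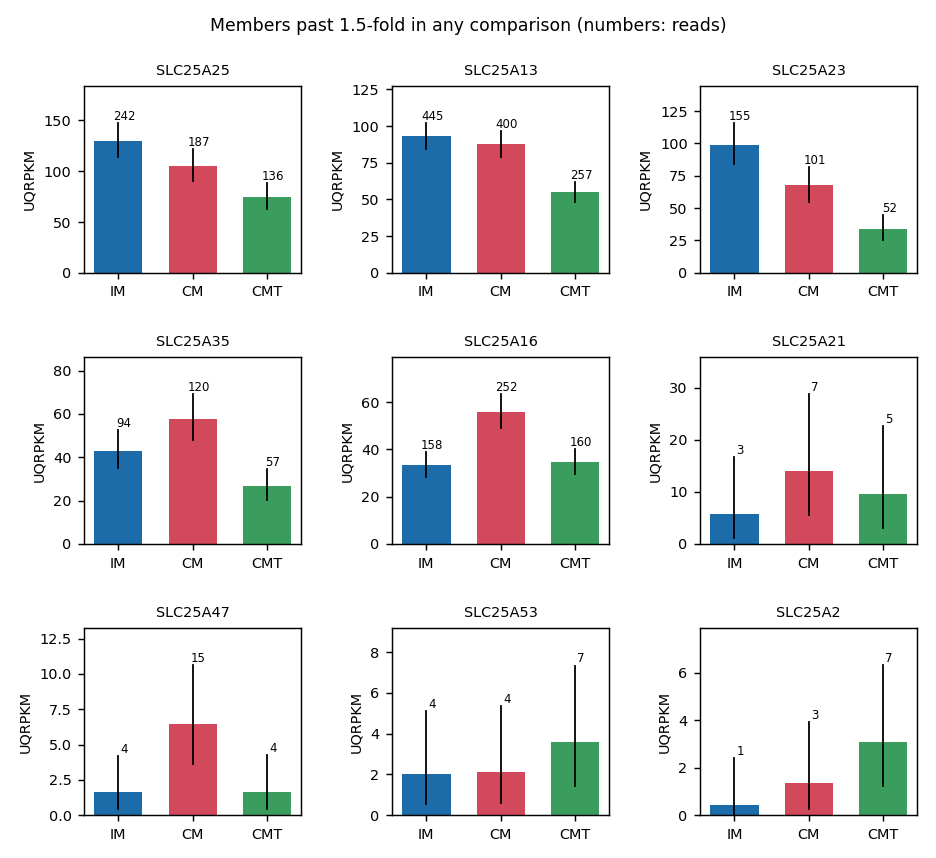
Level in UQRPKM of the 9 carriers past 1.5-fold in any comparison, with bars for IM, CM and CMT, exact Poisson 95% intervals as lines and the number of recovered reads above each. SLC25A23, SLC25A25 and SLC25A13 were lowest in CMT, SLC25A16 and SLC25A47 were highest in CM, and SLC25A35 was both. SLC25A21, SLC25A53 and SLC25A2 rested on at most 7 reads per library.

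Over the 36 carriers, CMT was the lowest library for 19, IM for 10 and CM for 7, or 52.8%, 27.8% and 19.4%. Over all 13858 mRNA genes compared in the same way the shares were 39.0%, 27.5% and 33.5%. CM was the highest library for 15 carriers, IM for 14 and CMT for 7, or 41.7%, 38.9% and 19.4%, beside 29.1%, 42.8% and 28.1% of all these mRNA genes. The summed level of adipocyte markers was also lowest in CMT, the 8 that were found summing to 144607, 137039 and 114831 UQRPKM in IM, CM and CMT. Of these sums, ADIPOQ alone gave 74928, 69193 and 63873. Not every marker was lowest in CMT. PNPLA2 was lowest in CM, at 10283, 7431 and 7827 UQRPKM, and CD36 in IM, at 4275, 5289 and 4756, while the others were lowest in CMT. Of these 8, LEP and PLIN4 were past the thresholds in CMT versus CM, both lower, and none was at 0. LEP, the hormone leptin, had 167, 502 and 156 UQRPKM, so that CM stood above both other libraries, at 1.59 on the log2 scale over IM, and CMT was at -0.10 against IM. PLIN4, a coat protein of lipid droplets, had 8944, 9349 and 4585 UQRPKM. Their part in the lower carrier levels of CMT was not tested.

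The balance between related carriers can be read within a library, where it does not depend on the scaling between libraries. These pairs were chosen with the values known. SLC25A4 stood at 1.30 times SLC25A5 in IM (95% interval 1.22 to 1.38), 1.12 times in CM (1.05 to 1.20) and 0.913 times in CMT (0.857 to 0.974), so that the higher of the pair in CMT was SLC25A5. How reads shared by this pair were assigned is not stated, so which gene was higher is uncertain beyond counting error. SLC25A12 stood at 1.12 times SLC25A13 in IM (0.951 to 1.33), 1.35 times in CM (1.14 to 1.59) and 1.80 times in CMT (1.49 to 2.18). SLC25A33 stood at 1.68, 1.85 and 3.14 times SLC25A36 in IM, CM and CMT. In the calcium-dependent pair, SLC25A23 stood at 0.761, 0.642 and 0.454 times SLC25A25. The intervals of IM and CMT did not overlap for the first 3 of these pairs, while for the last they overlapped between 0.618 and 0.630. SLC25A28 stood at 5.34, 4.23 and 3.82 times SLC25A37 in IM, CM and CMT, and SLC25A39 at 21.8, 14.1 and 18.4 times SLC25A40. The IM and CMT intervals did not overlap for SLC25A28 over SLC25A37 (4.66 to 6.13 and 3.30 to 4.42). For SLC25A39 over SLC25A40 they did (18.8 to 25.3 and 15.8 to 21.4). The other pair plotted is UCP3 and UCP2, described next, with ratios of 6.55, 8.15 and 3.45. Its IM and CMT intervals, 6.07 to 7.08 and 3.21 to 3.72, did not overlap. Overlap was not counted over other gene pairs, so its absence does not set these carrier pairs apart.

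**Figure D4:**
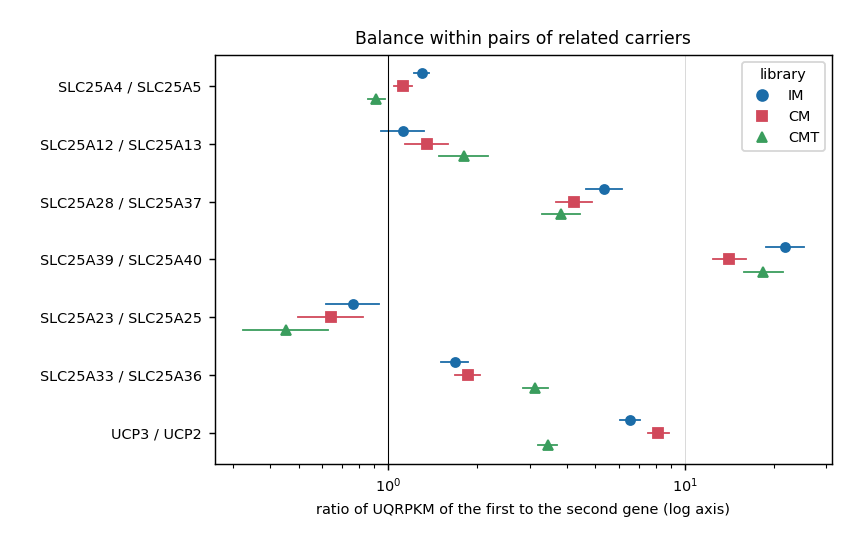
Ratio of the UQRPKM of the first to the second gene of 7 pairs of related carriers, on a log axis, with 1 symbol and a 95% counting interval per library. SLC25A4 over SLC25A5 crosses 1 between CM and CMT, SLC25A33 over SLC25A36 is highest in CMT, and UCP3 over UCP2 is lowest there.

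Family members under other names were not part of the 40. UCP3, an uncoupling protein known mainly from skeletal muscle and brown fat, had 1941, 2332 and 1240 UQRPKM in IM, CM and CMT, from 6492, 7435 and 4063 reads. CMT was past the thresholds against CM, at -0.91, and against IM, at -0.65. The part of the skeletal muscle markers of CMT in this level was not tested. UCP2, the widely expressed form and its neighbour in the RefSeq annotation of Sscrofa11.1, had 296, 286 and 359 UQRPKM, highest in CMT. UCP1, the uncoupling protein of brown fat, is classed as ncRNA in the deposited values and was not compared. MTCH2, an outer membrane member that inserts proteins, had 114, 181 and 116 UQRPKM and was past the thresholds in CM versus IM at 0.67 and in CMT versus CM at -0.64. MTCH1, its relative, had 1128, 1061 and 941 and was within 1.5-fold throughout. LOC100525444, which RefSeq names SLC25A14, had 10, 7 and 5 reads, and LOC100626629, named SLC25A30, was at 0 in all libraries.

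The partners of the carriers were followed as lists. Of 8 genes for carrier import, TIMM22, the channel that inserts carriers into the inner membrane, was past the thresholds, lower in CM versus IM at -0.62 and in CMT versus IM at -0.66. It rested on 29, 18 and 18 reads, and both intervals included 0, running from -1.55 to 0.28 and from -1.59 to 0.24. The list's medians were -0.02 for CM against IM, -0.06 for CMT against CM and -0.10 for CMT against IM. Of 9 other mitochondrial membrane transporters with values, 1 was past the thresholds, SFXN3, a sideroflexin, at -0.77 in CMT versus IM. MPC2, a subunit of the mitochondrial pyruvate carrier, had 1531, 1907 and 1463 UQRPKM and stayed within 1.5-fold. VDAC2 was listed at 0 in all libraries, which can be a failed estimate.

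Of 5 enzymes of the malate-aspartate and glycerol phosphate shuttles, GPD1, the cytosolic glycerol phosphate dehydrogenase, was past the thresholds. It had 7876, 7479 and 4925 UQRPKM in IM, CM and CMT, with CMT at -0.60 against CM and -0.68 against IM on the log2 scale. GOT1, GOT2, MDH1 and MDH2, the aminotransferases and malate dehydrogenases that work with SLC25A12 and SLC25A13, were all within 1.5-fold. Of 5 genes of the carnitine shuttle, CPT1C, a carnitine palmitoyltransferase relative known from brain, was lower in CM versus IM at -0.90 and in CMT versus IM at -0.71, from 45, 23 and 27 reads, and the second interval, from -1.45 to 0.01, included 0. CPT2 and CRAT, which work with SLC25A20 inside mitochondria, were within 1.5-fold.

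Among 6 citrate export partners with values, ACLY was past the thresholds in every comparison and CS, the citrate synthase, in CMT versus CM at -0.60. CS had 1945, 2018 and 1334 UQRPKM in IM, CM and CMT. PC, the pyruvate carboxylase that replenishes oxaloacetate, had 24830.4, 21425 and 20100.02 UQRPKM within 1.5-fold. CS was also the one gene past the thresholds among 9 genes of mitochondrial content, whose medians were 0.11 for CM against IM, -0.18 for CMT against CM and 0.06 for CMT against IM. VDAC1, the abundant channel of the outer membrane, had 2428, 2956 and 2537 UQRPKM. TOMM20, an outer membrane import receptor, had 211, 233 and 238.

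**Figure D5:**
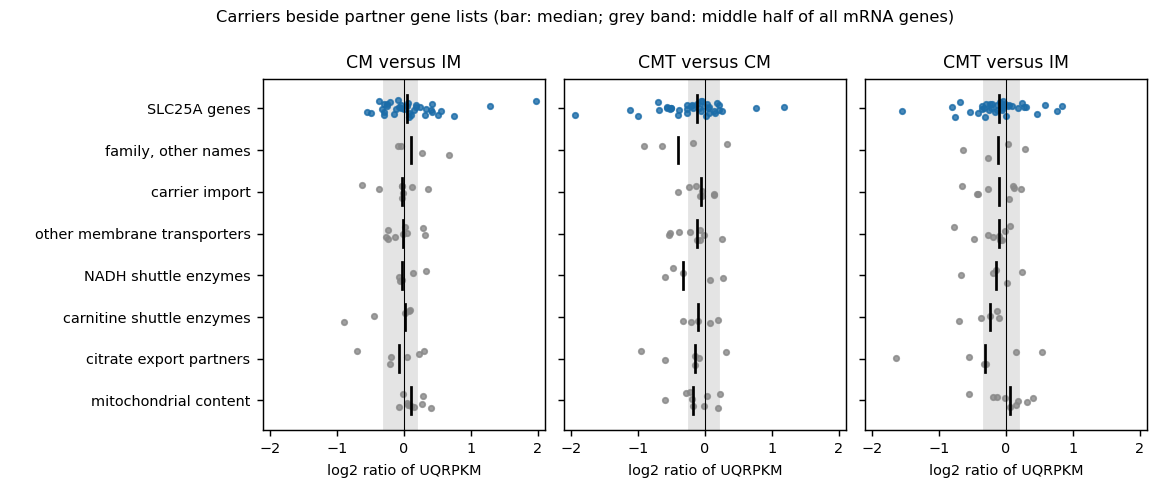
Log2 ratio of UQRPKM in the 3 comparisons for the SLC25A genes (blue) and 7 lists of related genes (grey), 1 point per gene with at least 1 UQRPKM in both libraries, with black bars at list medians and a grey band for the range between the quartiles of all mRNA genes. The carrier medians of 0.05, -0.12 and -0.11 lie inside the band in each comparison.

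Macrophage and brown fat markers completed the lists. Of 7 macrophage markers with values, LOC100520753 (CD68) and EMR1 were past the thresholds in CM versus IM, both higher, and these and ITGAM were past them in CMT versus CM, all lower. The 7 log2 ratios ran from -0.22, for CSF1R, to 1.31 in CM versus IM, and none of the 7 was past the thresholds in CMT versus IM. CD163 was listed at 0 in all libraries, as were CIDEA, ELOVL3 and CPT1B of the brown and beige markers. As for SLC25A6, a listing at 0 can be a failed estimate and does not show absence. DIO2, a deiodinase of brown fat, had 18, 8 and 14 reads, and PRDM16, a regulator of brown fat identity, had 26, 34 and 24. COX7A1, a subunit of cytochrome c oxidase also abundant in muscle, was high in each library, at 2867, 2287 and 2725 UQRPKM, and stayed within 1.5-fold. Of the 6 adrenal markers that were found, CYP11A1 and CYP17A1 were at 0 in all libraries, and CYP21A2 had 1 read in CMT. HSD3B1, a steroid dehydrogenase, had 336, 592 and 369 UQRPKM. It was past the thresholds in CM versus IM at 0.82 and in CMT versus CM at -0.68. MC2R had 19, 20 and 6 reads and was past them in CMT versus CM at -1.78 and in CMT versus IM at -1.63. STAR had 25.3, 22.7 and 27.6 UQRPKM and stayed within 1.5-fold. The part of these marker lists in the carrier levels was not tested.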

How the data were processed

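RNA of VAT was measured in 3 libraries, 1 pool of pigs per group. The deposited RPKM values are scaled by the upper quartile (UQRPKM) and were made by the authors from clean reads aligned to Sscrofa 10.2 by MapSplice. The counting tool, annotation and handling of shared reads are not given in the sources used here. Gene positions and sequences were not used here, since the gene table at hand describes another build, Sscrofa11.1. It was used for names and neighbours, and 39 of the 40 names matched.

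Reads were recovered as value × upper quartile × length / 100000, with upper quartiles of 149, 142 and 146 for IM, CM and CMT from the commonest ratios of low values, and the shortest length up to 120000 bases that made all values whole. A whole number was found for all 20838 genes above 0, to within a relative error of 7.65e-09. Such reads were used for intervals and an added test only. The recovery and calls were also run on values simulated with the same formula and Poisson reads. Such values cannot show that the formula holds for the deposited data, nor how calls fare with differences between pigs.

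The thresholds (1.5-fold, at least 1 UQRPKM in both libraries) follow the study's methods. Its DEGSeq test was not run, because 1 library per group gives no replicate error. Ratio intervals are exact Clopper-Pearson, level intervals exact Poisson, both 95% and for counting error only. Alternatives were 2 scalings, a pseudocount, 2 filters on low values, a 2-fold threshold, an exact binomial test on reads and wider membership. Full values are given for members past the thresholds, for the 10 highest and for those with few reads. The values of 1 detected carrier are not reported here, though it is in every count. Members and lists were chosen with earlier results of these data known. Python 3.11.15, numpy 2.4.6, pandas 2.3.3, scipy 1.17.1 and matplotlib 3.10.9 were used.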

Additional observations from a re-analysis of the deposited data

How the results depend on the processing

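Counts of carriers past 1.5-fold moved by more than 1.5 times in 4 cases. With at least 10 reads required in both libraries, 1 carrier remained in CM versus IM, SLC25A16, in place of 3, and 4 in CMT versus CM in place of 7. With a 2-fold threshold, 3 remained in CMT versus CM in place of 7 and 1 in CMT versus IM, SLC25A23, in place of 6. The other counts stayed within 1.5 times under equal totals, median ratio scaling, a pseudocount of 1, no minimum, the exact binomial test and members under other names, and the same was true of the detected number, 38. Median log2 ratios moved by less than a typical counting interval of a single gene, which is not the error of a median. Under median ratio scaling they went from 0.05 to 0.12 in CM versus IM and from -0.12 to -0.10 in CMT versus CM. In CMT versus IM the median went from -0.11 to -0.03, so its size depended on the scaling. Median ratio scaling shifted CM versus IM by 0.06, CMT versus CM by 0.02 and CMT versus IM by 0.08 on the log2 scale, took 7 of 109 single ratios outside their intervals and reversed no ratio past 1.5-fold. Adding members with LOC names was chosen after seeing the data. No paired analysis was possible because each group has 1 library. Of the 8 carriers with under 10 reads in some library, SLC25A47 alone had intervals that excluded 0, in both comparisons with CM, and for the others a difference was not detectable at this depth.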
